A study of Homo sapiens with 12 samples.

Results

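The p53 tumour suppressor is a transcription factor that is held at a low level by the ubiquitin ligase MDM2 and its partner MDM4, and that is released after DNA damage, oxidative stress or other insults. It then binds response elements in its target genes, which include an arrest arm (CDKN1A, GADD45A, BTG2), a death arm (FAS, the TRAIL receptors, AEN), a DNA repair arm (DDB2, XPC, POLH), a metabolic arm (TP53I3, FDXR, TIGAR) and a feedback arm that restrains p53 again (MDM2, PPM1D, CCNG1). Here 30 direct target genes of p53, named as a fixed list of symbols, were described among the 20323 genes of the deposited tables. Each symbol stood at a single identifier. Of these 30 genes, 28 passed the filter on low counts, as did 12718 genes in all.

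RNA enriched with oligo(dT) beads was sequenced from cells labelled A549, a human lung adenocarcinoma line, in 4 groups of 3 libraries: LKB1-deficient cells (titled con) with AA, LKB1-deficient cells with PBS, LKB1-intact cells (labelled WT) with AA, and LKB1-intact cells with PBS. AA is the high-dose agent that the titles call VitC, that is ascorbic acid (vitamin C), and PBS is its buffer control. LKB1, encoded by STK11, is a kinase upstream of AMPK and a tumour suppressor of lung cancer. The labels give no dose or time, do not say how either genotype was made or whether it is 1 clone, and do not state that the 3 libraries of a group were separate cultures, so p-values measure only the spread between these libraries. The question set by the design was how LKB1 status alters the response to AA.

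Libraries held 16055534 to 20306129 estimated counts. Levels are given in CPM, counts divided by the library total on a common scale and corrected by TMM factors, and changes are log2 ratios of AA over PBS, or of deficient over intact cells, from edgeR's quasi-likelihood test with Benjamini-Hochberg adjustment over all 12718 genes; a gene was called at an adjusted p under 0.05. STK11 had 5.61, 7.34 and 6.97 CPM in LKB1-deficient AA libraries and 5.94, 6.56 and 4.86 CPM in LKB1-deficient PBS libraries, against 24.3, 28.2 and 25.6 CPM in LKB1-intact AA libraries and 25.4, 24.6 and 23.6 CPM in LKB1-intact PBS libraries. It was lower in deficient cells under PBS (log2 change -2.08, SE 0.11, adjusted p = 1.48e-10), as labelled, with transcript still detected. Several markers went against the A549 label, since that line is known for high AKR1B10, AKR1C2 and ALDH1A1. The group means of these genes and of the epithelial KRT19 and CDH1 lay at 0.632 to 2.06, 0.535 to 0.858, 0 to 0.0407, 0.102 to 0.29 and 1.17 to 1.61 CPM, while those of KRT8 and KRT18 were 771 to 1947 and 742 to 1421 CPM. A549 is also described as lacking the CDKN2A locus, but group means of CDKN2A were 66.7 to 110.1 CPM, and those of its neighbours MTAP and CDKN2B, chosen after their values were seen, were 57.3 to 61 and 8.32 to 14.9 CPM. The identity of the cells was not tested further. Among markers of other cell types, PTPRC (leukocytes), KDR (endothelium), COL1A2 (fibroblasts) and SFTPC (alveolar type 2 cells) had group means of 0 to 0.0202, 0, 0 and 0 to 0.125 CPM, but other members of these lists were expressed and some moved with AA. The 6 leukocyte markers summed to 104.6 to 112 CPM in AA libraries and 83.4 to 94.3 CPM in PBS libraries, most of it CD68, and the 2 that were tested rose: CD68 changed by 0.31 and 0.26 and ITGAM by 2.45 and 3.00 (log2, deficient and intact cells). The 4 endothelial markers summed to 0.719 to 4.29 CPM in AA libraries and 6.56 to 10.7 CPM in PBS libraries, and CDH5, the 1 tested, fell (-2.89 and -1.38). The 6 fibroblast markers summed to 11.3 to 17 CPM over all libraries, and the 7 alveolar ones to 119.9 to 144 CPM, nearly all ABCA3. The part of these genes' changes in the results was not tested.

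Response elements for p53 near the transcription start were looked for first, because p53 acts on its targets by binding such elements. RefSeq promoter windows of the GRCh38.p14 build, running from 250 bases before to 50 bases after each start, were found for 20 of the 30 genes. Each window was searched for the p53 response element, a run of 20 bases made of a pair of adjoining decamers without a spacer, with at most 2 mismatches and none at the C and G that frame the core of each decamer. The element reads the same on both strands. It was found in 4 of the 20 genes, or 20% of them, against 98 of 27305 genes, or 0.359%, over all windows of that length. The genes were listed as direct p53 targets, so a larger share was built into their choice and is no test. The 4 sites, with the central bases of each decamer in capitals, read as follows on the + strand.
MDM2 chr12:68808923-68808942: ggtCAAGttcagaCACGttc
FAS chr10:88991309-88991328: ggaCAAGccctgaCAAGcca
AEN chr15:88621306-88621325: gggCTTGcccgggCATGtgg
DDB2 chr11:47214969-47214988: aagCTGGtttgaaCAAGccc
The DDB2 site had 1 mismatch to the element and the other sites had 2. Counted from the RefSeq start of the window, the first base of the site lay at -5 in DDB2, -34 in AEN and -122 in FAS. In MDM2 it lay at -94 or -101 from 2 RefSeq starts. The GENCODE spans of these genes begin farther upstream, at 47214465 in DDB2, 88621296 in AEN, 88990582 in FAS and 68808176 in MDM2. All 4 sites therefore lie inside the annotated genes. A match is a description of these letters and no evidence of binding, and a window without one says nothing of elements elsewhere: those through which p53 is known to act on CDKN1A, for example, lie farther from the start. Genes with such a site in common did not share a direction under AA: DDB2 rose in both genotypes, and MDM2 and AEN fell in both. FAS was called higher in LKB1-intact cells, but the genotype in which it passed depends on the deposited unit.

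Under AA the 28 measured targets went both ways, with CDKN1A the most increased in both genotypes. TP53INP1, BTG2 and ZMAT3 were the most decreased in LKB1-deficient cells, and BTG2, TP53INP1 and PHLDA3 in LKB1-intact cells. In LKB1-deficient cells 12 targets rose and 8 fell, which is 71.4% of 28, against 74.4% of all genes tested (37.0% higher and 37.4% lower). In LKB1-intact cells 14 rose and 11 fell, which is 89.3%, against 69.8% of all genes (34.5% higher and 35.2% lower). The share called was thus near the background in deficient cells and above it in intact cells, and the list went both ways in each. In bulk RNA a change in the make-up of the cells and a change per cell cannot be told apart. The median log2 change of the 28 genes was 0.13 in deficient and 0.08 in intact cells, beside 0.01 over all genes in either. The median size of the change, without its sign, was 0.47 for the targets and 0.43 for all genes in deficient cells, and 0.57 and 0.34 in intact cells. Of the 28 genes, 18 were called in the same direction in both genotypes, which is 64.3%, against 51.6% of all genes (24.6% higher in both and 27.0% lower in both): 10 rose (ASCC3, CDKN1A, CMBL, DDB2, GADD45A, KITLG, PLK2, PPM1D, TP53I3 and TRIAP1) and 8 fell (AEN, BTG2, FBXO22, MDM2, PHLDA3, POLH, TP53INP1 and ZMAT3). The direction of FBXO22 depends on the deposited unit, as given below.

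**Figure D1:**
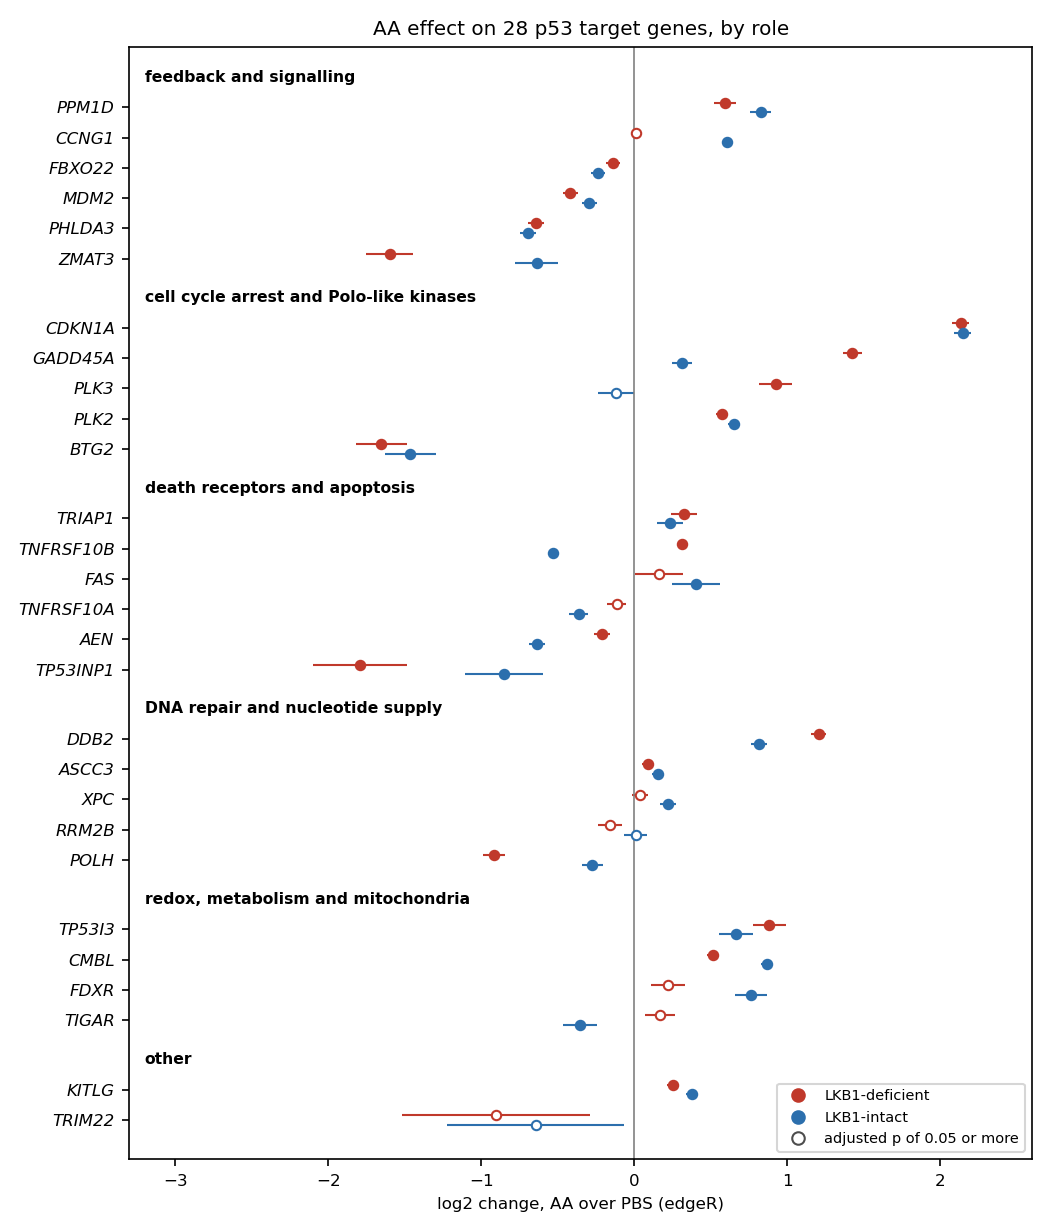
Change under AA of the 28 measured p53 targets (log2 of AA over PBS, x axis), grouped by role, with LKB1-deficient cells in red above LKB1-intact cells in blue; bars are ± 1 SE of the edgeR fit and open points have an adjusted p of 0.05 or more. CDKN1A lies at 2.13 and 2.15 while BTG2 lies at -1.65 and -1.46, and every group but the last holds called genes on either side of 0.

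MDM4, the partner of MDM2 that blocks p53's transactivation domain, fell to 33.2 ± 1.94 CPM in LKB1-deficient AA libraries, against 53.8 ± 3.78 CPM in LKB1-deficient PBS libraries, and to 28.8 ± 3.45 CPM in LKB1-intact AA libraries, against 52.4 ± 0.558 CPM in LKB1-intact PBS libraries (SD, n = 3 each). Its log2 changes were -0.70 (SE 0.0709, adjusted p = 1.07e-08) and -0.86 (SE 0.0723, adjusted p = 7.91e-10) in deficient and intact cells, but on log2 of the deposited FPKM + 1 the change in deficient cells was 0.22 (limma, adjusted p = 0.31), so the direction in deficient cells depends on the deposited unit. The p53 protein, which is mainly set by its stability, was not measured.

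The arrest arm held the highest increase and one of the deepest decreases. CDKN1A encodes p21, the inhibitor of cyclin-dependent kinases through which p53 stops the cell cycle (chr6:36676460-36687339, GRCh38, + strand). It had 113, 116 and 122 CPM in LKB1-deficient AA libraries, against 28.3, 27.1 and 24.5 CPM in LKB1-deficient PBS libraries. In LKB1-intact cells it had 113, 105 and 112 CPM with AA, against 25.4, 25.2 and 24 CPM with PBS. Every AA library lay far above every PBS library, and in CPM the genotypes overlapped within each treatment. The increases were 4.39-fold in deficient cells (log2 change 2.13, SE 0.0544, adjusted p = 8.99e-19) and 4.43-fold in intact cells (log2 change 2.15, SE 0.0548, adjusted p = 4.32e-18), and the test of their difference did not pass (log2 difference -0.01, SE 0.0797, adjusted p = 0.922). The level under AA was not called between genotypes (deficient over intact, 0.09). It was called higher in deficient cells with library sizes alone (0.15, edgeR, adjusted p = 0.00944) and on log2 of FPKM + 1 (0.15, limma, adjusted p = 0.0439).

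GADD45A, a stress protein that acts on cell cycle kinases and DNA repair (chr1:67685061-67688338, + strand), did not follow CDKN1A. It had 102, 112 and 99.1 CPM in LKB1-deficient AA libraries, against 35.9, 40.6 and 39.7 CPM in LKB1-deficient PBS libraries (log2 change 1.43, SE 0.0632, adjusted p = 1.08e-14). LKB1-intact cells had 46.3, 43.4 and 45.9 CPM with AA, against 39.6, 37.1 and 32.7 CPM with PBS (log2 change 0.31, SE 0.0683, adjusted p = 0.000364). It rose in both genotypes, and its increase was larger in deficient cells (log2 difference 1.11, SE 0.0935, adjusted p = 3.37e-09), the largest such difference among the 28 targets. PLK3, a stress-responsive Polo-like kinase, had 14.6, 16.5 and 15.8 CPM in LKB1-deficient AA libraries, against 8.15, 8.5 and 8.05 CPM in LKB1-deficient PBS libraries (log2 change 0.92, SE 0.106, adjusted p = 6.68e-08). In LKB1-intact cells it had 5.83, 7.11 and 6.36 CPM with AA, against 6.61, 6.7 and 7.64 CPM with PBS (log2 change -0.12, SE 0.118, adjusted p = 0.378). PLK3 therefore rose in deficient cells, the AA and PBS libraries of intact cells overlapped, and the change differed between genotypes (log2 difference 1.04, SE 0.159, adjusted p = 1.46e-05). PLK2, the related kinase of centriole duplication, rose 1.49-fold in deficient cells and 1.57-fold in intact cells, with no difference past the threshold (log2 difference -0.08, SE 0.0573, adjusted p = 0.284).

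BTG2, an antiproliferative cofactor of mRNA deadenylation, went the other way. It had 2.78, 2.24 and 2.25 CPM in LKB1-deficient AA libraries, against 8.09, 6.8 and 8.11 CPM in LKB1-deficient PBS libraries (log2 change -1.65, SE 0.168, adjusted p = 1.05e-08). LKB1-intact cells had 2.45, 2.45 and 2.84 CPM with AA, against 7.49, 6.11 and 7.86 CPM with PBS (log2 change -1.46, SE 0.167, adjusted p = 9.91e-08). The AA libraries were below all PBS libraries in both genotypes, and no difference between genotypes passed the test (log2 difference -0.19, SE 0.24, adjusted p = 0.559).

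**Figure D2:**
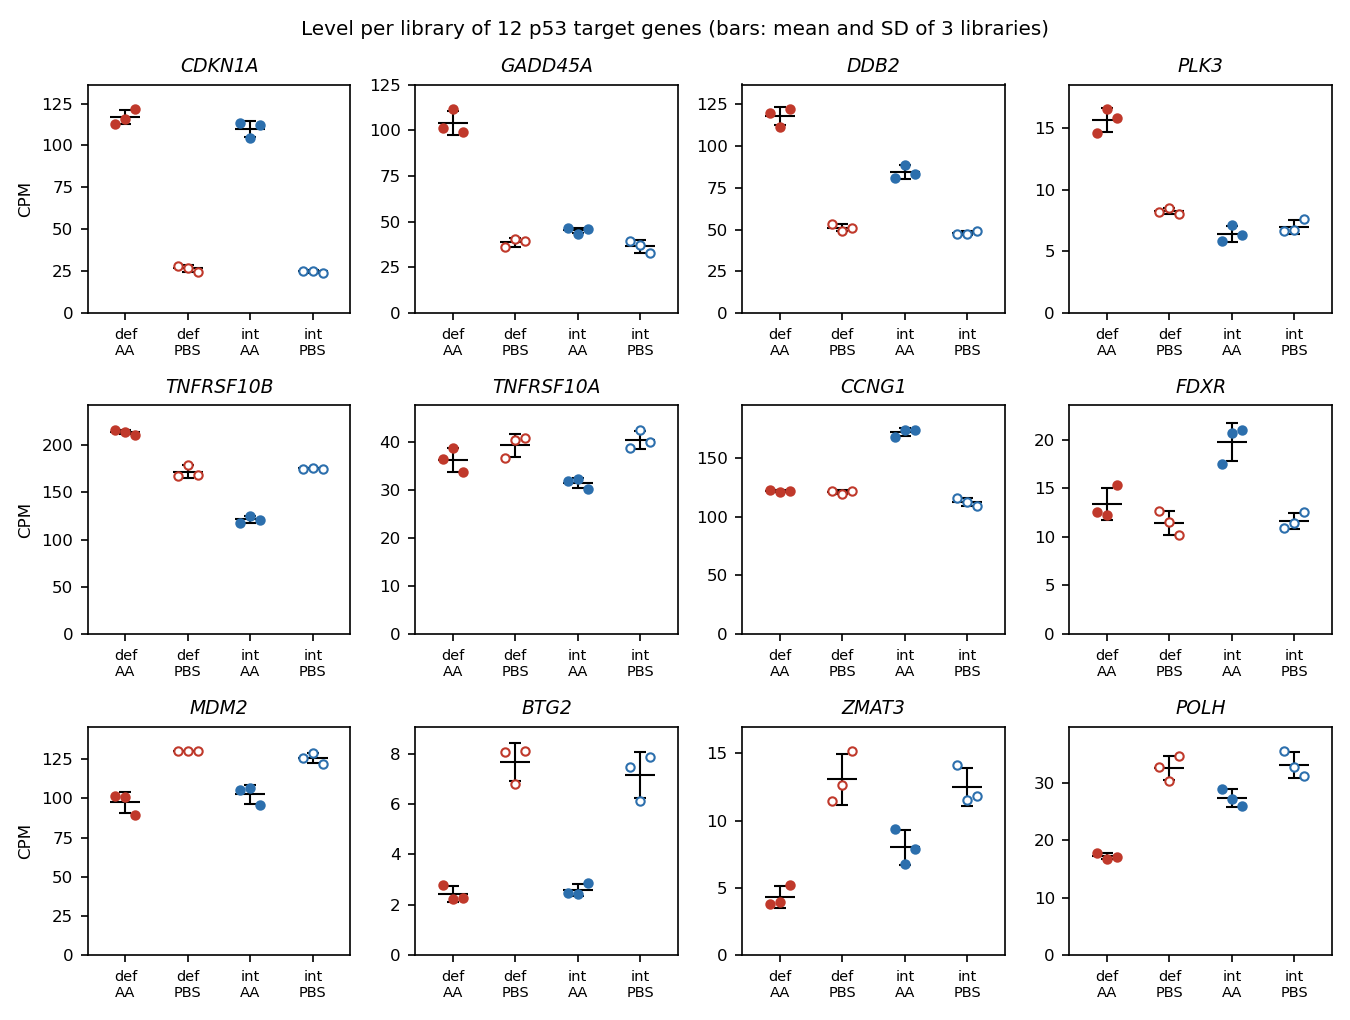
Level in CPM (y axis, from 0) of 12 p53 targets in each library, in LKB1-deficient (def, red) and LKB1-intact (int, blue) cells with AA (filled) or PBS (open); bars are the mean and SD of 3 libraries. CDKN1A rises to means of 117 CPM in deficient and 109.96 CPM in intact cells, GADD45A and PLK3 rise mainly in deficient cells, CCNG1 rises in intact cells, and TNFRSF10B moves apart under AA.

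The genes that feed back on p53 or act beside it in signalling also went both ways. MDM2 had 102, 101 and 89.6 CPM in LKB1-deficient AA libraries, against 130.2, 130.3 and 130.1 CPM in LKB1-deficient PBS libraries (log2 change -0.42, SE 0.0476, adjusted p = 6.72e-08). In LKB1-intact cells it had 105, 107 and 95.8 CPM with AA, against 126, 129 and 122 CPM with PBS (log2 change -0.29, SE 0.0475, adjusted p = 1.23e-05). MDM2, the textbook p53 target that degrades p53, thus fell in both genotypes while CDKN1A rose. PPM1D encodes WIP1, the phosphatase that switches off p53 and its upstream kinases, and it rose to 47.3 ± 3.36 CPM in LKB1-deficient AA libraries, against 31.4 ± 1.67 CPM in LKB1-deficient PBS libraries (log2 change 0.59, SE 0.0704, adjusted p = 1.18e-07). It rose to 56.3 ± 1.64 CPM in LKB1-intact AA libraries, against 31.8 ± 3.41 CPM in LKB1-intact PBS libraries (log2 change 0.83, SE 0.0689, adjusted p = 7.11e-10; SD, n = 3 each).

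CCNG1 encodes cyclin G1, which helps a phosphatase to activate MDM2. It had 123, 121 and 122 CPM in LKB1-deficient AA libraries, against 122, 119 and 122 CPM in LKB1-deficient PBS libraries (log2 change 0.01, SE 0.0351, adjusted p = 0.77). LKB1-intact cells had 168, 174 and 174 CPM with AA, against 116, 113 and 109 CPM with PBS (log2 change 0.61, SE 0.0344, adjusted p = 1.26e-12). It rose in intact cells, the libraries of deficient cells overlapped, and the difference passed the test (log2 difference -0.60, SE 0.0492, adjusted p = 2.49e-09). ZMAT3, an RNA-binding zinc finger protein and a mediator of tumour suppression by p53, had 3.79, 3.94 and 5.24 CPM in LKB1-deficient AA libraries, against 11.5, 12.6 and 15.2 CPM in LKB1-deficient PBS libraries (log2 change -1.60, SE 0.153, adjusted p = 4.02e-09). In LKB1-intact cells it had 9.37, 6.78 and 7.91 CPM with AA, against 14.2, 11.5 and 11.9 CPM with PBS (log2 change -0.64, SE 0.141, adjusted p = 0.000415). It fell in both genotypes and further in deficient cells (log2 difference -0.96, SE 0.209, adjusted p = 0.000716), although that difference did not pass on log2 of the deposited FPKM + 1 (-0.32, limma, adjusted p = 0.125). PHLDA3, which competes with AKT for membrane lipids, fell in both genotypes, with log2 changes of -0.64 in deficient cells and -0.69 in intact cells. FBXO22, a ubiquitin ligase subunit, had log2 changes of -0.14 (SE 0.0457, adjusted p = 0.0106) and -0.24 (SE 0.0461, adjusted p = 9.75e-05) in deficient and intact cells, but its estimated counts were not whole in any of the 12 libraries. Its direction turned on log2 of FPKM + 1, to a called increase of 0.25 in deficient cells (limma, adjusted p = 0.000264). In intact cells it stood there at 0.02 (limma, adjusted p = 0.675).

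The death receptors showed the one reversal of the list in edgeR's test with TMM factors. TNFRSF10B encodes the TRAIL receptor DR5. It had 216, 214 and 211 CPM in LKB1-deficient AA libraries, against 168, 179.6 and 169 CPM in LKB1-deficient PBS libraries (log2 change 0.31, SE 0.0338, adjusted p = 2.7e-08). LKB1-intact cells had 118, 125 and 121 CPM with AA, against 175, 176 and 175 CPM with PBS (log2 change -0.53, SE 0.035, adjusted p = 1.66e-11). It rose in deficient cells and fell in intact cells without overlap of the libraries in either, and the difference was 0.84 (SE 0.0486, adjusted p = 9.01e-12) on the log2 scale. Among genes called in both genotypes, 1 of 19 targets, or 5.26%, had opposite directions, beside 751 of 7318 genes, or 10.3%, over the whole table. TNFRSF10A, the sister receptor DR4, fell in intact cells, to 31.5 ± 1.06 CPM with AA, against 40.5 ± 1.89 CPM with PBS (log2 change -0.36, SE 0.064, adjusted p = 3.37e-05; SD, n = 3 each), while deficient cells had 36.4 ± 2.48 CPM with AA and 39.4 ± 2.37 CPM with PBS (log2 change -0.11, SE 0.0633, adjusted p = 0.109). Without PBS library 1 or AA library 2 of the deficient cells, the change there passed (log2 change -0.17 and -0.16, adjusted p = 0.0347 and 0.0411). The difference between genotypes passed (log2 difference 0.25, SE 0.09, adjusted p = 0.0282), but not without any 1 of 5 libraries (adjusted p 0.0524 to 0.0859). These receptors belong to a family of close paralogs, and the estimated counts of TNFRSF10B were not whole in 7 of 12 libraries, and how reads were split among its members is uncertain.

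FAS, the receptor of FAS ligand, had 5.8, 5.42 and 6.03 CPM in LKB1-deficient AA libraries, against 5.09, 4.68 and 5.66 CPM in LKB1-deficient PBS libraries (log2 change 0.16, SE 0.155, adjusted p = 0.349). In LKB1-intact cells it had 5.07, 6.5 and 6.47 CPM with AA, against 4.22, 4.05 and 5.34 CPM with PBS (log2 change 0.41, SE 0.156, adjusted p = 0.0257). The call in intact cells rests on overlapping libraries and was lost without PBS library 1 or 2 or AA library 2 or 3, with adjusted p of 0.0794 to 0.107. On log2 of FPKM + 1, FAS passed in deficient cells (0.31, limma, adjusted p = 0.0455) and not in intact cells (0.31, limma, adjusted p = 0.0529). EDA2R, the ectodysplasin receptor, had no count in any of the 12 libraries, which allows up to 0.144 to 0.189 CPM per library from a floor of 3 counts, for counting error only.

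Among the other apoptosis genes, AEN, a nuclease that takes part in apoptosis, fell to 56.7 ± 3.15 CPM in LKB1-deficient AA libraries, against 65.7 ± 2.08 CPM in LKB1-deficient PBS libraries, and to 45.9 ± 2.47 CPM in LKB1-intact AA libraries, against 71.3 ± 0.931 CPM in LKB1-intact PBS libraries (SD, n = 3 each). Its log2 changes were -0.21 and -0.63, a smaller decrease in deficient cells (log2 difference 0.42, SE 0.0723, adjusted p = 5.9e-05). TP53INP1, a p53-inducible nuclear protein of apoptosis and autophagy, was rare: it had 0.527, 0.438 and 0.839 CPM in LKB1-deficient AA libraries, against 2.02, 1.94 and 2.34 CPM in LKB1-deficient PBS libraries (log2 change -1.79, SE 0.305, adjusted p = 1.79e-05). LKB1-intact cells had 1.74, 1.72 and 1.6 CPM with AA, against 2.71, 3.68 and 2.75 CPM with PBS (log2 change -0.85, SE 0.252, adjusted p = 0.00499). It fell in both genotypes, and the difference did not pass the test (log2 difference -0.94, SE 0.399, adjusted p = 0.0609). The difference passed without intact PBS library 2 (-1.10, edgeR, adjusted p = 0.0443) or without deficient AA library 3 (-1.25, edgeR, adjusted p = 0.0269). TRIAP1, an inhibitor of apoptosome assembly with a short transcript, rose slightly, with log2 changes of 0.33 (SE 0.0831, adjusted p = 0.00136) in deficient cells and 0.24 (SE 0.0854, adjusted p = 0.0181) in intact cells.

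DDB2 led the repair arm. It encodes a subunit that recognises ultraviolet lesions in nucleotide excision repair (chr11:47214465-47239240, + strand). It had 119.9, 112 and 122 CPM in LKB1-deficient AA libraries, against 53.5, 48.9 and 51 CPM in LKB1-deficient PBS libraries (log2 change 1.21, SE 0.0488, adjusted p = 2.28e-15). LKB1-intact cells had 81, 88.8 and 83.5 CPM with AA, against 47.3, 47.3 and 49.3 CPM with PBS (log2 change 0.82, SE 0.0502, adjusted p = 5.23e-12). It rose in both genotypes, and by more in deficient cells (log2 difference 0.39, SE 0.0703, adjusted p = 0.000105). POLH, the translesion polymerase eta, moved the opposite way: 17.8, 16.8 and 17.1 CPM in LKB1-deficient AA libraries, against 32.8, 30.4 and 34.7 CPM in LKB1-deficient PBS libraries (log2 change -0.92, SE 0.0731, adjusted p = 2.05e-10). In LKB1-intact cells it had 29, 27.2 and 26 CPM with AA, against 35.6, 32.8 and 31.2 CPM with PBS (log2 change -0.28, SE 0.0688, adjusted p = 0.00128). Its decrease was larger in deficient cells (log2 difference -0.64, SE 0.101, adjusted p = 2.02e-05). XPC, the partner of DDB2 in lesion recognition, rose in intact cells (log2 change 0.22, SE 0.0514, adjusted p = 0.000663) and did not pass in deficient cells (log2 change 0.04, SE 0.052, adjusted p = 0.504). Its difference between genotypes sat at the threshold (log2 difference -0.18, SE 0.0731, adjusted p = 0.0481) and was lost under several settings. The estimated counts of XPC were not whole in 7 of 12 libraries. ASCC3, a helicase of alkylation repair, had small increases of 0.09 (SE 0.0365, adjusted p = 0.0341) and 0.15 (SE 0.0363, adjusted p = 0.000729) on the log2 scale in deficient and intact cells, and neither passed on log2 of FPKM + 1 (limma, adjusted p = 0.054 and 0.288). RRM2B, the p53-inducible subunit of ribonucleotide reductase, passed in neither (log2 change -0.16, SE 0.0758, adjusted p = 0.0639 in deficient cells and log2 change 0.01, SE 0.0751, adjusted p = 0.906 in intact cells), but without PBS library 1 it passed in deficient cells (log2 change -0.24, adjusted p = 0.00989).

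In the metabolic arm TP53I3, a quinone reductase tied to oxidative stress, rose in both genotypes. It had 18.1, 17.5 and 17.9 CPM in LKB1-deficient AA libraries, against 9.81, 9.05 and 10.1 CPM in LKB1-deficient PBS libraries (log2 change 0.88, SE 0.109, adjusted p = 2.16e-07), and 14.8, 14.4 and 19.6 CPM in LKB1-intact AA libraries, against 10.6, 10.8 and 9.49 CPM in LKB1-intact PBS libraries (log2 change 0.66, SE 0.108, adjusted p = 1.35e-05). FDXR, the mitochondrial reductase that feeds electrons to iron-sulfur cluster and steroid synthesis, had 12.6, 12.3 and 15.3 CPM in LKB1-deficient AA libraries, against 12.7, 11.5 and 10.2 CPM in LKB1-deficient PBS libraries (log2 change 0.22, SE 0.11, adjusted p = 0.0736). LKB1-intact cells had 17.5, 20.7 and 21 CPM with AA, against 10.9, 11.5 and 12.5 CPM with PBS (log2 change 0.76, SE 0.105, adjusted p = 1.44e-06). It rose in intact cells, and the changes differed between genotypes (log2 difference -0.54, SE 0.153, adjusted p = 0.00635). In deficient cells FDXR would have passed without PBS library 1 or AA library 2, with upper quartile factors or library sizes alone, and on both FPKM scales (adjusted p 0.0278 to 0.0453).

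TIGAR, a phosphatase that slows glycolysis, fell in intact cells, to 10.5 ± 0.995 CPM with AA, against 13.4 ± 1.64 CPM with PBS (log2 change -0.35, SE 0.109, adjusted p = 0.00661; SD, n = 3 each), while deficient cells had 18.7 ± 2.23 CPM with AA and 16.7 ± 0.455 CPM with PBS (log2 change 0.17, SE 0.0993, adjusted p = 0.128). The changes differed (log2 difference 0.52, SE 0.148, adjusted p = 0.0061), but the decrease in intact cells did not pass without their PBS library 2 (log2 change -0.25, adjusted p = 0.066). With library sizes alone, TIGAR passed as an increase in deficient cells (log2 change 0.23, edgeR, adjusted p = 0.0435). The estimated counts of TIGAR were not whole in 9 of 12 libraries. CMBL, a cysteine hydrolase of the liver and other tissues, rose in both genotypes and by more in intact cells, to 187 ± 2.39 CPM in LKB1-deficient AA libraries, against 131 ± 4.43 CPM in LKB1-deficient PBS libraries, and to 228 ± 8 CPM in LKB1-intact AA libraries, against 125 ± 3.63 CPM in LKB1-intact PBS libraries (SD, n = 3 each; log2 difference -0.35, SE 0.0516, adjusted p = 9.15e-06). SPATA18, a factor of mitochondrial quality control, had at most 2 counts in a library and was not tested.

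KITLG and TRIM22 fall in none of these arms. KITLG, the KIT ligand that signals to other cells, rose to 74.5 ± 1.88 CPM in LKB1-deficient AA libraries, against 62.6 ± 1.23 CPM in LKB1-deficient PBS libraries, and to 88.6 ± 1.38 CPM in LKB1-intact AA libraries, against 68.3 ± 0.309 CPM in LKB1-intact PBS libraries (SD, n = 3 each), with log2 changes of 0.25 and 0.38. TRIM22, an interferon-inducible antiviral protein, stayed near the detection limit at 0.111 to 1.05 CPM per library and passed in neither genotype (log2 change -0.90, SE 0.615, adjusted p = 0.19 in deficient cells).

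Without AA no target differed past the threshold between genotypes. None of the 28 targets was called between LKB1-deficient and LKB1-intact cells under PBS, by edgeR's test or by DESeq2, where edgeR's test called 0.275% of all genes (0.0550% higher and 0.220% lower in deficient cells). The lowest adjusted p was 0.222, for PLK2, and 6 genes (AEN, CCNG1, KITLG, PLK2, TIGAR and TP53INP1) had an unadjusted p under 0.05. MDM4 had a log2 difference of 0.04 (SE 0.0682, adjusted p = 0.918) under PBS. With AA, 9 targets were higher and 10 lower in deficient than in intact cells, which is 67.9% of 28, against 59.0% of all genes (28.7% higher and 30.3% lower). PLK3 had the largest higher value (log2 difference 1.28, SE 0.107, adjusted p = 1.19e-09), followed by GADD45A (log2 difference 1.20, SE 0.061, adjusted p = 3.06e-13), TIGAR (log2 difference 0.84, SE 0.104, adjusted p = 4.28e-07) and TNFRSF10B (log2 difference 0.82, SE 0.0344, adjusted p = 1.32e-14). TP53INP1 (log2 difference -1.48, SE 0.309, adjusted p = 0.000303), ZMAT3 (log2 difference -0.89, SE 0.159, adjusted p = 5.32e-05) and POLH (log2 difference -0.66, SE 0.0735, adjusted p = 8.69e-08) were the lowest.

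The change under AA differed between genotypes for 13 of 28 targets, 7 with a higher and 6 with a lower value in deficient cells, which is 46.4%, against 44.6% of all genes (21.6% higher and 23.0% lower), and so near the background. The higher ones were GADD45A, PLK3, TNFRSF10B, TIGAR, AEN, DDB2 and TNFRSF10A, and the lower ones ZMAT3, POLH, CCNG1, FDXR, CMBL and XPC. The comparisons under AA and of the change share their AA libraries and are given side by side, not as support for each other. The changes under AA in the 2 genotypes, which share no library but come from the same fit, had a Pearson r of 0.822 and a Spearman rho of 0.793 over the 28 targets, and 0.745 and 0.734 over all 12718 genes.

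**Figure D3:**
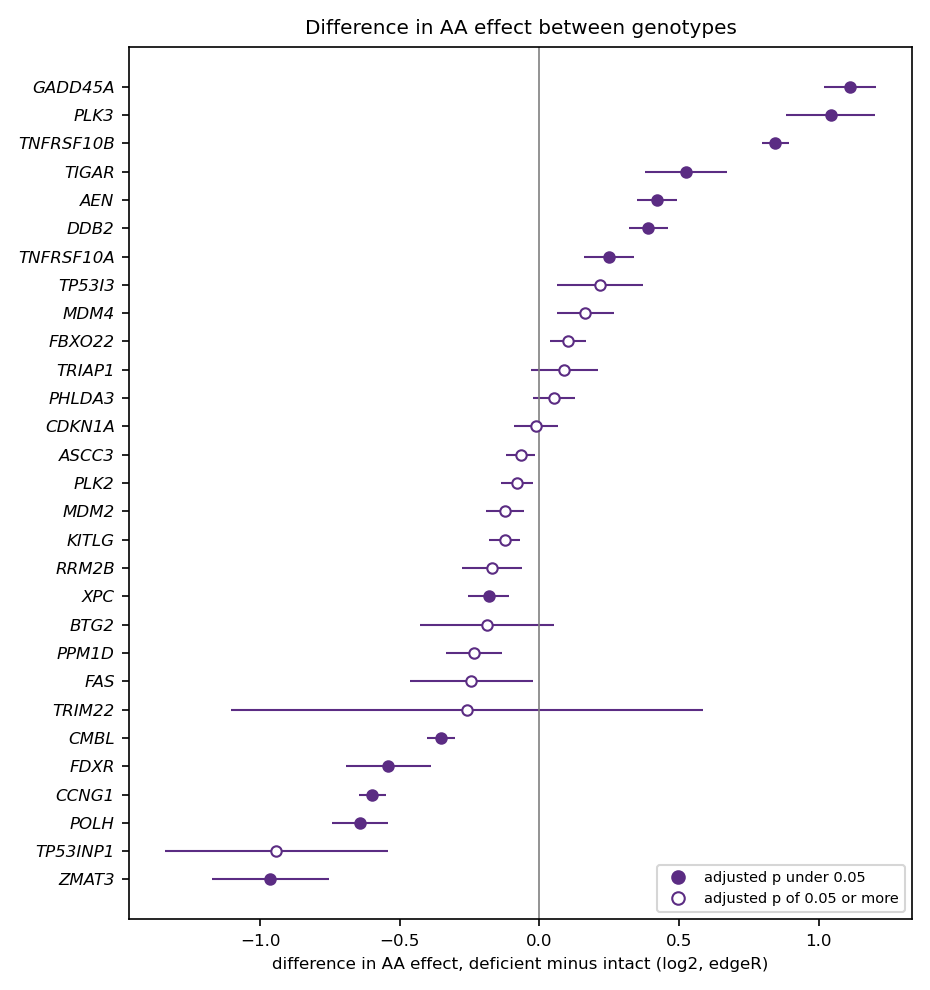
Difference in the change under AA, LKB1-deficient minus LKB1-intact cells (log2, x axis), for the 28 measured p53 targets with MDM4; bars are ± 1 SE of the edgeR fit and filled points have an adjusted p under 0.05. GADD45A lies at 1.11 and ZMAT3 at -0.96, while CDKN1A, with the largest increase in either genotype, lies at -0.01.

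Levels of different genes can be compared on the deposited FPKM scale, which divides by transcript length. Averaged over the 12 libraries, CCNG1 (55.5 FPKM), TNFRSF10B (52.7 FPKM), PLK2 (46.6 FPKM), FBXO22 (46.5 FPKM) and DDB2 (45.7 FPKM) came first, and TP53INP1 (0.329 FPKM), SPATA18 (0.022 FPKM) and EDA2R (0 FPKM) last. CDKN1A moved in that order with treatment: it had 57.4 ± 2.51 FPKM in LKB1-deficient AA libraries, against 12.6 ± 1.07 FPKM in LKB1-deficient PBS libraries, and 51.6 ± 2.2 FPKM in LKB1-intact AA libraries, against 11.7 ± 0.222 FPKM in LKB1-intact PBS libraries (SD, n = 3 each). MDM2 had 21.4 ± 1.7 FPKM in LKB1-deficient AA libraries, against 28.8 ± 2.27 FPKM in LKB1-deficient PBS libraries, and 22 ± 2.92 FPKM in LKB1-intact AA libraries, against 29.6 ± 0.274 FPKM in LKB1-intact PBS libraries. The FPKM level of CDKN1A was thus above that of MDM2 with AA and below it with PBS, in both genotypes.

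**Figure D4:**
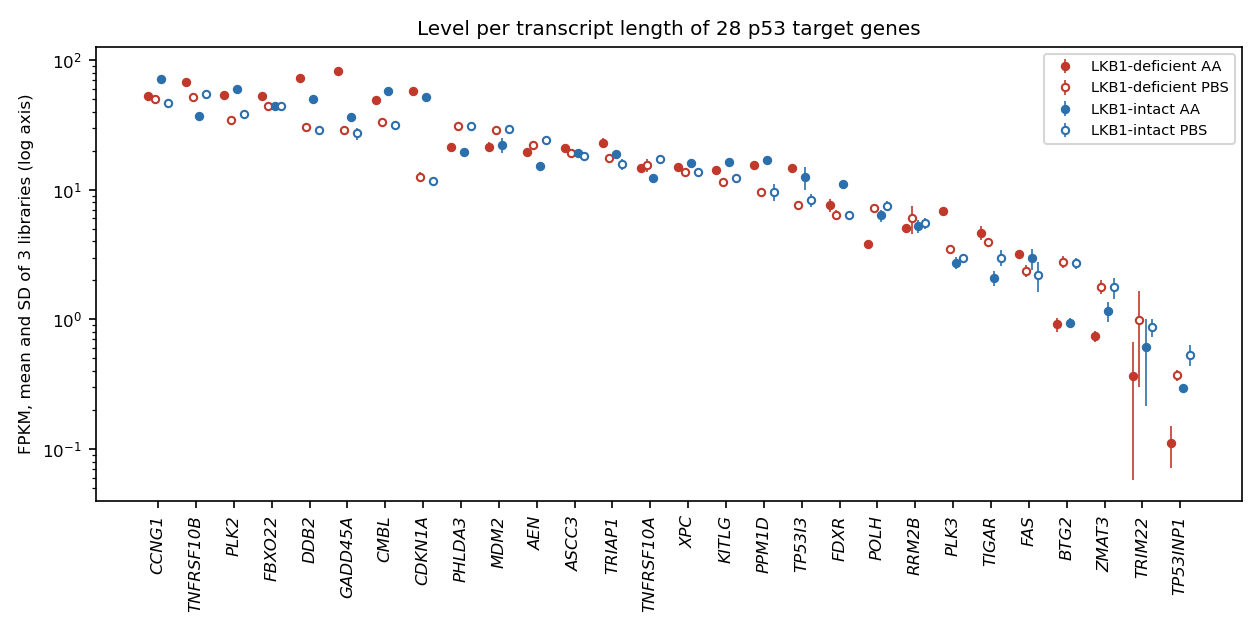
Level of the 28 measured p53 targets per transcript length (FPKM, log axis, mean and SD of 3 libraries), ordered by the mean over 12 libraries, in LKB1-deficient AA, LKB1-deficient PBS, LKB1-intact AA and LKB1-intact PBS cells. The levels run from a mean of 55.5 FPKM for CCNG1 to 0.329 FPKM for TP53INP1, and CDKN1A lies at 57.4 FPKM with AA and 12.6 FPKM with PBS in deficient cells.

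Changes under AA ran with transcript length across the whole table. Against the length implied by the deposited counts and FPKM values, the log2 change had a Spearman rho of -0.41 in LKB1-deficient and -0.39 in LKB1-intact cells over 12711 genes, and the median change in deficient cells was 0.35 for the 25% of genes with the shortest transcripts (under 1.70 kb) and -0.36 for the 25% with the longest (over 3.98 kb). Over the 28 targets rho was -0.38 in deficient and -0.24 in intact cells. With this trend removed, a step chosen after seeing the data, CDKN1A stood at 2.05 in deficient and 2.09 in intact cells, ZMAT3 (6.95 kb) at -1.15 and -0.29, and MDM2 (4.45 kb) at -0.16 and -0.09, each on the log2 scale. GADD45A (1.31 kb) then stood at 1.11 in deficient and 0.09 in intact cells, POLH (4.52 kb) at -0.65 and -0.07, and TRIAP1 (1.15 kb) at -0.03 in both. The part of length or RNA quality in these changes was not tested.

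Around the 30 targets, lists of p53 regulators, of further p53 targets and of downstream genes went both ways in each genotype, as did the integrated stress response in LKB1-intact but not in LKB1-deficient cells. The shares of all genes called, against which these lists are set, were 74.4% in deficient cells (37.0% higher and 37.4% lower) and 69.8% in intact cells (34.5% higher and 35.2% lower). Of 43 genes of the p53 family and its regulators, 15 rose and 20 fell in LKB1-deficient cells (median log2 change -0.05), and 15 rose and 19 fell in LKB1-intact cells (median 0.0013), so that 81.4% and 79.1% were called. RPL5, the ribosomal protein that can bind and block MDM2, rose by 0.53 and 0.61 on the log2 scale in deficient and intact cells, while SETD7, a lysine methyltransferase, had log2 changes of -0.78 and -0.48 and USP7, the deubiquitinase that stabilises MDM2 and p53, of -0.74 and -0.58. CDKN2A, whose ARF product also inhibits MDM2, was chosen after its values were seen and rose in both, by 0.72 and 0.64. Counts are per gene, so the ARF transcript was not told apart from other transcripts of CDKN2A. The change differed between genotypes for KMT5A (log2 difference 0.91, SE 0.066, adjusted p = 3.18e-10), a methyltransferase of histone H4 and p53, and for TP53BP1, a p53-binding protein of double-strand break repair (log2 difference -0.59, SE 0.0521, adjusted p = 6.69e-09).

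Of 68 further p53 targets, 65 were tested: 28 rose and 25 fell in LKB1-deficient cells (median 0.05), and 22 rose and 17 fell in LKB1-intact cells (median 0.03). The shares called, 81.5% and 60%, lay above that of all genes in deficient cells and below it in intact cells. GDF15, a secreted stress cytokine, led in both, with log2 changes of 3.37 (SE 0.0583, adjusted p = 2.7e-21) and 2.17 (SE 0.0671, adjusted p = 5.54e-17), and it was also the 1 gene of this list called under PBS between deficient and intact cells (log2 change 0.49, SE 0.0816, adjusted p = 0.01). IER3, an early response gene, rose by 1.65 and 1.37. SESN2, a stress-induced inhibitor of mTORC1, had the largest difference between genotypes of these targets (log2 difference 2.78, SE 0.149, adjusted p = 2.74e-12), with a log2 change of 2.62 (SE 0.0928, adjusted p = 2.33e-16) in deficient cells and -0.16 (SE 0.114, adjusted p = 0.218) in intact cells. APAF1, the scaffold of the apoptosome, had the opposite difference (log2 difference -0.95, SE 0.0859, adjusted p = 1.11e-08).

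Cell cycle genes that the p21 and DREAM pathway is known to repress did not fall together with the rise of CDKN1A. Of 30 such genes, 15 rose and 10 fell in LKB1-deficient cells (median 0.13), and 16 rose and 7 fell in LKB1-intact cells (median 0.10). That is 50% higher and 33.3% lower in deficient cells, against 37.0% and 37.4% of all genes, and 53.3% higher and 23.3% lower in intact cells, against 34.5% and 35.2%. In deficient cells the replication licensing genes MCM4 and MCM5 had log2 changes of -0.56 and -0.54, and the mitotic genes KIF2C and PRC1 rose by 0.57 and 0.43. In intact cells TOP2A, CKS1B, PRC1 and CDC25C rose by 0.34, 0.40, 0.26 and 0.80.

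The integrated stress response core, 10 genes of the pathway of the factor ATF4, differed with the genotype. All 10 rose in LKB1-deficient cells (median 2.09), where 37.0% of all genes did, and 5 rose and 3 fell in LKB1-intact cells (median 0.01), where 34.5% of all genes rose and 35.2% fell. The change was larger in deficient cells for all 10 (median difference 1.41), and for 21.6% of all genes. The list was chosen with earlier results of these data known, so these shares are a description and no test. DDIT3, which encodes the factor CHOP, had 31, 32.1 and 32.7 CPM in LKB1-deficient AA libraries, against 8.27, 9.54 and 9.47 CPM in LKB1-deficient PBS libraries, and 6.54, 8.23 and 6.72 CPM in LKB1-intact AA libraries, against 7.99, 8.7 and 8.99 CPM in LKB1-intact PBS libraries. ASNS, asparagine synthetase, changed by 2.66 (SE 0.0544, adjusted p = 3.14e-20) in deficient cells and -0.30 (SE 0.0623, adjusted p = 0.000185) in intact cells. Of the 5 genes that rose in intact cells, PPP1R15A, ATF3, DDIT4 and TRIB3 did so by 1.43, 1.41, 0.98 and 0.31 (log2). ASNS was among the 3 that fell there. ATF3 and SESN2 stand in this list and among the further p53 targets, so the lists are not independent. GADD45A, PLK3 and TNFRSF10B rose more in the genotype in which this response rose more, and its part in their change was not tested.

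**Figure D5:**
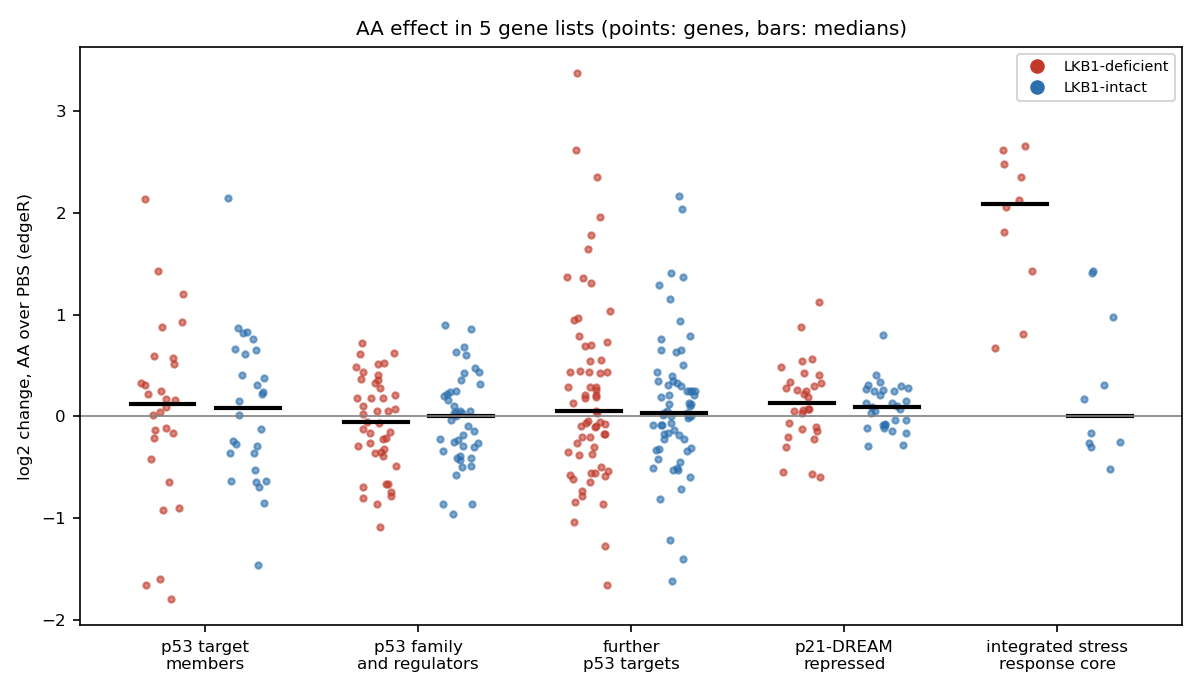
Change under AA (log2 of AA over PBS, y axis) of single genes in 5 lists, in LKB1-deficient (red) and LKB1-intact (blue) cells; points are genes and bars are medians. The medians of the p53 targets are 0.13 and 0.08, and those of the stress response core are 2.09 and 0.01.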

How the data were processed

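RNA was sequenced from 12 libraries in 4 groups of 3, and grouping followed the genotype and treatment labels. Per the submitters' processing notes, HISAT2 2.1.0, RSEM, StringTie 1.3.1, Bowtie2 2.2.8 and fastp 0.18.0 were used; what each did, the genome build and the use of strand were not given in the sources used here. Per gene, the authors deposited estimated counts, of which 10.9 to 11.5% per library were not whole, and FPKM values, counts scaled by transcript length and library total; gene family members that share reads are uncertain. Counts were rounded and fitted with edgeR 4.0.16 (R 4.3.3; TMM factors 0.987 to 1.03; filterByExpr with a minimum count of 10; a quasi-likelihood test on 1 fit of all libraries; 5 contrasts; Benjamini-Hochberg adjustment over 12718 genes, called under 0.05). CPM and the tests were computed here, and the fit was tested on simulated data. Gene positions are those of GENCODE release 29 on GRCh38, and promoter windows those of RefSeq.

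All 30 targets, STK11 and MDM4 are named, with up to 4 called genes of smallest p per comparison from each other list, with a mean of at least 1 CPM; CDKN2A, BAX, BBC3, PMAIP1 and TP73 were chosen after their values were seen, and a few genes the rule names are not reported here. The genes and lists were chosen with earlier results of these data known. Alternatives were other scalings, filters, tools (DESeq2 1.42.0; limma 3.58.1 on log2 of FPKM + 1 or + 0.1, genes over 1 FPKM in at least 3 libraries), a replicate block, each comparison's 6 libraries alone and leaving out each library. No libraries of a group agreed within sampling noise.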

Additional observations from a re-analysis of the deposited data

Results flagged for a closer look

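The following genes had a change under AA that differed between LKB1-deficient and LKB1-intact cells by edgeR's test of the difference itself, given as log2, deficient minus intact. Among the p53 targets the higher values were GADD45A at 1.11 (SE 0.0935, adjusted p = 3.37e-09), PLK3 at 1.04 (SE 0.159, adjusted p = 1.46e-05), TNFRSF10B at 0.84 (SE 0.0486, adjusted p = 9.01e-12), TIGAR at 0.52 (SE 0.148, adjusted p = 0.0061), AEN at 0.42 (SE 0.0723, adjusted p = 5.9e-05), DDB2 at 0.39 (SE 0.0703, adjusted p = 0.000105) and TNFRSF10A at 0.25 (SE 0.09, adjusted p = 0.0282). The lower values were ZMAT3 at -0.96 (SE 0.209, adjusted p = 0.000716), POLH at -0.64 (SE 0.101, adjusted p = 2.02e-05), CCNG1 at -0.60 (SE 0.0492, adjusted p = 2.49e-09), FDXR at -0.54 (SE 0.153, adjusted p = 0.00635), CMBL at -0.35 (SE 0.0516, adjusted p = 9.15e-06) and XPC at -0.18 (SE 0.0731, adjusted p = 0.0481).

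Of the surrounding lists, the regulators KMT5A (0.91) and CSNK1A1 (0.42) were higher, and TP73 (-0.59), TP53BP1 (-0.59) and TRIM28 (-0.54) lower. The further p53 targets SESN2 (2.78), BBC3 (1.29), GDF15 (1.20), FHL2 (1.06) and PMAIP1 (0.95) were higher, and APAF1 (-0.95) lower. Of the cell cycle genes, MCM5 (-0.79), MCM4 (-0.48) and MCM7 (-0.22) were lower. Of the stress response core, ASNS (2.97), DDIT3 (2.07) and TRIB3 (1.75) were higher. The largest adjusted p among these genes outside the 30 targets was 0.00397, for TP73.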

How the results depend on the processing

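The rare targets TRIM22 and TP53INP1 had the widest errors in every comparison. Counts of targets called in each direction stayed within 1.5 times under every alternative run. On log2 of FPKM + 1 and + 0.1, FBXO22 turned to 0.25 and 0.26 in LKB1-deficient and 0.024 and 0.024 in LKB1-intact cells, and MDM4 to 0.22 and 0.25 in deficient cells; with the length trend removed TRIAP1 turned to -0.030 in deficient and -0.033 in intact cells. The causes were not tested. The difference between genotypes of XPC was lost with library sizes alone, without the low-count filter, on both FPKM scales, with DESeq2 (adjusted p = 0.0831), and without any library but intact PBS 1, intact AA 3 and deficient PBS 1; that of TNFRSF10A was lost without intact PBS 2, intact AA 3, deficient PBS 1 or deficient AA 1 or 2 (lowest 0.20), and that of ZMAT3 on both FPKM scales. In deficient cells the ASCC3 call was lost without PBS library 1 or 3 or AA library 1 or 3, with no low-count filter and on both FPKM scales (adjusted p 0.0505 to 0.151), and FBXO22 without PBS library 3, with upper quartile factors and with library sizes alone (0.0681 to 0.119). In intact cells TRIAP1 was lost without PBS library 1 or AA library 2, and ASCC3 (0.285 to 0.288) and FAS (0.0529 to 0.0533) on both FPKM scales. Some uncalled differences between genotypes passed elsewhere. That of PPM1D passed with upper quartile factors or no low-count filter (0.0398 and 0.0497). It also passed without intact PBS 1, deficient PBS 1 or deficient AA 3 (0.0122 to 0.0419). Those of MDM2 and TP53I3 passed without intact AA 3 (0.0346 and 0.0298). That of KITLG passed with upper quartile factors (0.0403), and that of FBXO22 on both FPKM scales (0.0138 and 0.0143).

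The median change of the targets in deficient cells (0.13) was 0.18 with library sizes alone, 0.18 with a minimum count of 50, 0.23 and 0.25 on the FPKM scales, 0.17 with 6 libraries and 0.070 with the length trend removed; leaving out single libraries gave 0.067 (without AA library 1) to 0.15. In intact cells (0.08) it was 0.15 with upper quartile factors, 0.0041 with no filter, 0.20 with a minimum count of 50, 0.14 and 0.15 on the FPKM scales, 0.16 with 6 libraries and 0.027 with the length trend removed. For the difference (-0.10) it was -0.047 with library sizes alone, 0.030 and 0.031 on the FPKM scales and -0.044 with the length trend removed; under AA (-0.07) it was -0.012 with library sizes alone and 0.10 and 0.12 on the FPKM scales. These medians are too near 0 for a direction.

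The 35 genes called between genotypes under PBS became 111 with no filter, 54 with DESeq2 and 5 on either FPKM scale. Leaving out single libraries gave 6 to 43: 9, 6 and 15 without intact PBS library 1, 2 or 3, and 6 and 14 without deficient PBS library 1 or 3; none was a target in any of these. Libraries with the same number did not pair (correlations of their deviations -0.094 to 0.054). With the number as a replicate block, 9402, 8776 and 5554 genes were called for AA in deficient cells, AA in intact cells and the difference, against 9465, 8872 and 5673 without it, and the 1 call among the targets that changed was the XPC difference (-0.18, adjusted p = 0.0621).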

Other observations

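BAX, BBC3 and PMAIP1, effectors of mitochondrial apoptosis that are p53 targets but not among the 30 genes, were chosen after their values were seen. BAX, the pore-forming effector, rose in both genotypes: it had 22.1 ± 2.84 CPM in LKB1-deficient AA libraries, against 16.3 ± 0.66 CPM in LKB1-deficient PBS libraries, and 23.1 ± 2.61 CPM in LKB1-intact AA libraries, against 16.3 ± 0.699 CPM in LKB1-intact PBS libraries (SD, n = 3 each). Its change did not differ past the threshold between genotypes (edgeR, log2 difference -0.06, SE 0.135, adjusted p = 0.735). BBC3, which encodes PUMA, and PMAIP1, which encodes NOXA, trigger that pore. BBC3 had 4.51, 4.98 and 5.61 CPM in LKB1-deficient AA libraries, against 2.33, 2.92 and 2.46 CPM in LKB1-deficient PBS libraries (log2 change 0.97, SE 0.214, adjusted p = 0.000349). LKB1-intact cells had 2.4, 1.61 and 2.64 CPM with AA, against 2.39, 3.51 and 2.42 CPM with PBS (log2 change -0.33, SE 0.23, adjusted p = 0.214). PMAIP1 had 33.7, 33.9 and 34.7 CPM in LKB1-deficient AA libraries, against 16.2, 19.3 and 17.3 CPM in LKB1-deficient PBS libraries (log2 change 0.95, SE 0.0782, adjusted p = 3.41e-10), and 16.1, 15.4 and 14.9 CPM in LKB1-intact AA libraries, against 17.5, 14.4 and 14.4 CPM in LKB1-intact PBS libraries (log2 change 0.01, SE 0.0866, adjusted p = 0.954). Both rose in deficient cells, and their changes differed between genotypes (log2 difference 1.29, SE 0.314, adjusted p = 0.00195 for BBC3, and 0.95 (SE 0.117, adjusted p = 1e-06) for PMAIP1).

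TP73, the p53 paralog that can bind the same response elements, had 5.47, 5.75 and 6.03 CPM in LKB1-deficient AA libraries, against 11.2, 12.9 and 12.5 CPM in LKB1-deficient PBS libraries (log2 change -1.09, SE 0.113, adjusted p = 1.43e-08). LKB1-intact cells had 7.85, 7.06 and 8.17 CPM with AA, against 10.3, 11.7 and 10.6 CPM with PBS (log2 change -0.50, SE 0.11, adjusted p = 0.000408). It fell in both genotypes.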
